A study of Xenopus tropicalis with 26 samples.

Results

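The genes described here encode subunits of Ragulator (*lamtor1*, *lamtor2*, *lamtor3* and *lamtor5*), the Rag GTPases that Ragulator holds at the lysosome (*rraga*, *rragc* and *rragd*) and folliculin (*flcn*), a regulator of the Rags. Rows were matched by symbol, from a list of genes drawn up with earlier results of these data known. Of 9 symbols looked for, 8 were listed among the 34192 genes of the table, and *lamtor4* was not analysed here because no gene is listed under that symbol. Of these, 7 passed the filter on low values, an abundance above 0.4 in 6 consecutive samples of a condition, as did 15019 genes of the whole table, and *rragd* did not. RNA was measured in whole *Xenopus tropicalis* embryos kept at 25 °C in 1/9x MR, a dilute frog saline (control), or in a 10 mM KCl solution (high K+), which the paper describes as depolarizing. The data used here hold no membrane potential. The methods give a higher KCl concentration for other experiments of the study. Sampling began at stage 8, the blastula, and went on every 30 min to stage 13 (a legend gives an earlier last stage), which makes 13 samples of 10 pooled embryos in each condition and a last sample at 6 h. Each condition is 1 time course with no biological replicate, so each SD below is the spread along a course, and p-values over time points measure that spread alone, with neighbouring points that are not independent.

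Ragulator is a scaffold on the lysosome surface, anchored by the lipid-modified LAMTOR1, around which the other subunits are held in pairs, LAMTOR2 with LAMTOR3 and LAMTOR4 with LAMTOR5. It carries a Rag heterodimer, RagA or RagB with RagC or RagD, and in mammalian cells with enough amino acids the Rags bring the kinase complex mTORC1 to the lysosome, where Rheb switches it on. Folliculin, with its partners FNIP1 or FNIP2, stimulates GTP hydrolysis by RagC and RagD. At stage 8 a frog embryo lives largely on RNA that the egg supplied, and transcription from its own genome is starting.

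The values are abundances per gene, from TPM that the authors corrected with a model fitted in each condition separately. The model relates the known concentrations of spike-in RNAs to their TPM and dinucleotide content. The paper reports a GC bias that depended on batch and that varied between control and high K+ samples. An offset of a gene from that bias or these separate fits and a difference between the conditions therefore cannot be told apart. Spike-in levels given below are of the RNAs that the fits used, so they are no separate check of such an offset. The depth of the libraries is unknown, so no counting interval is given, and whole embryos were measured, so fewer cells of a type and less RNA per cell cannot be told apart either. The maternal *pou5f3.3* went from 1974 to 10.7 in control and from 2574 to 13.3 in high K+ between the first and last samples, and *ventx1.2*, *t*, *sox17a*, *gsc* and *sox2* were higher in the last than in the first sample of both conditions. *vegt*, also maternal, ended lower than it began in both, after highest values of 485 in control and 1255 in high K+. The highest values of *t*, *sox17a* and *gsc* came at 4.5, 4.5 and 3 h in control and at 3.5, 2.5 and 2.5 h in high K+. Those of *ventx1.2* and *sox2* came at 4.5 h in control and 5.5 h in high K+. Whether the 2 courses ran in step was not tested. The level of 43 spike-in RNAs ranged over the samples from -0.58 to 0.65 on the log2 scale and was the higher of a pair in high K+ at 10 of 13, by 0.13 ± 0.37 on average (SD, n = 13). The libraries at 1 h and 4.5 h bear on the genes below. At 1 h the control sample had the lowest spike-in level of all, -0.58 against 0.09 in its high K+ counterpart, and the widest gaps of *lamtor1*, *lamtor2* and *rraga* fell there. The high K+ sample at 1 h had a root mean square departure from the mean of its neighbours in time of 0.49 over 10059 genes. Without 1 h, *lamtor1* and *rraga* lost the log-likelihood call given below, and without 4.5 h no gene did. The control sample at 4.5 h departed from its neighbours by -1.06 in *lamtor3* and -0.84 in *lamtor5*, and by 0.68 in *rraga*, 0.68 in *flcn* and 0.58 in *lamtor1*, all on the log2 scale. Its root mean square departure was 0.45, against a median of 0.32 and a highest value of 0.54 among the other samples.

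*lamtor1* was the most abundant of the genes in both conditions and *rragd* the least. In the mean over the control course, *lamtor1* stood at 96.1, followed by *lamtor5* at 65.4, *rraga* at 65.0, *lamtor2* at 51.7, *rragc* at 30.9, *lamtor3* at 22.3, *flcn* at 9.73 and *rragd* at 0.326. In high K+ the order was *lamtor1* at 125.5, *rraga* at 85.0, *lamtor5* at 77.6, *lamtor2* at 77.3, *rragc* at 34.7, *lamtor3* at 24.4, *flcn* at 12.6 and *rragd* at 0.257. These abundances are per length and corrected for sequence. Genes can be set side by side as far as that correction holds for each of them, which was not tested. In control the mean of *lamtor1* was at or above that of 82.1% of tested genes and the mean of *flcn* at or above that of 36.0%. The first place was clear, since *lamtor1* exceeded the next gene at 12 of 13 time points in each condition. The middle of the order was not: *rragc* exceeded *lamtor3* at 7 of 13 time points and *lamtor3* exceeded *flcn* at 8 of 13 in both conditions, because these courses cross. In high K+ *rraga* had a higher mean than *lamtor5* but exceeded it at only 5 of 13 time points.

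**Figure D1:**
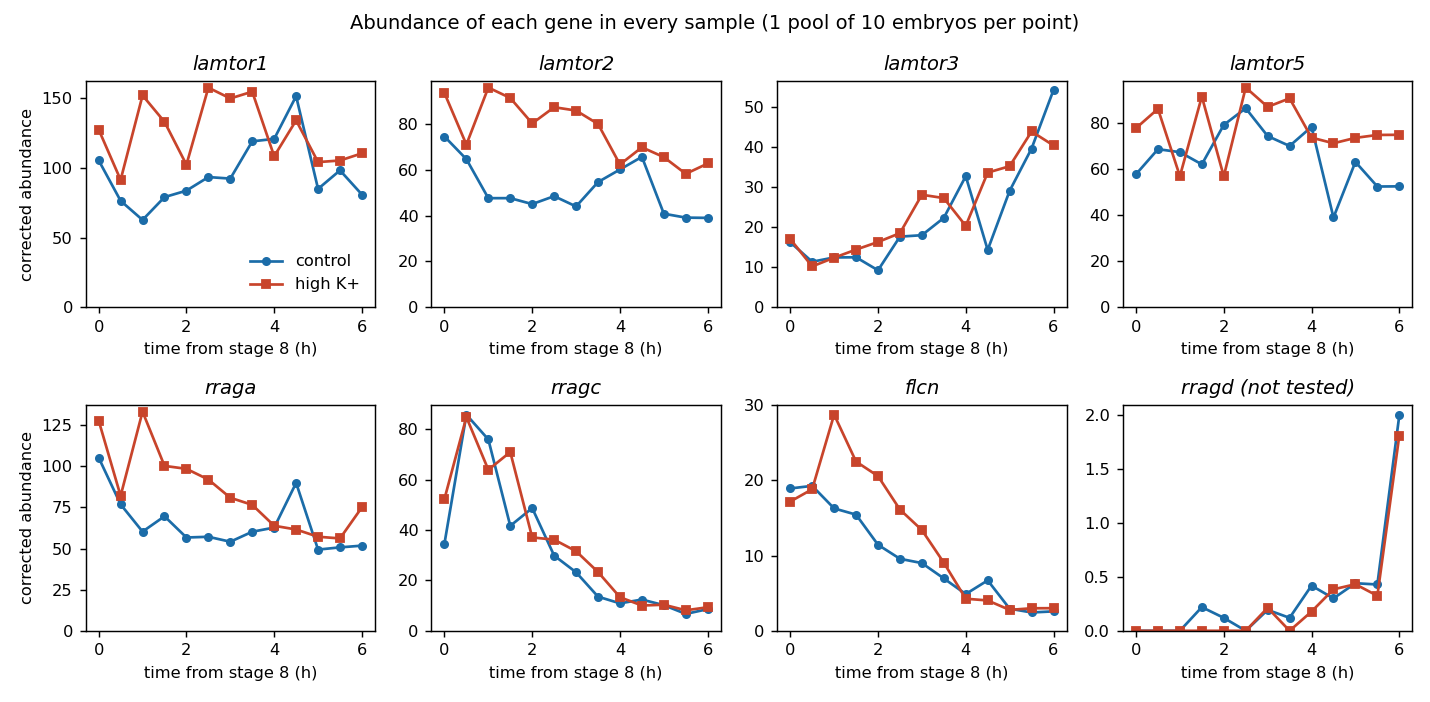
Corrected abundance (vertical axis, starting at 0) of each gene against time from stage 8 in hours, with control as blue circles and high K+ as red squares, each point 1 pool of 10 embryos. The high K+ points of *lamtor2* lie above control at all 13 time points, *lamtor3* climbs, *rragc* and *flcn* decline in both conditions, and *rragd* is near 0 until the last sample.

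In high K+, *lamtor1*, *lamtor2*, *rraga* and *flcn* were called higher than in control, and *lamtor3*, *lamtor5* and *rragc* were not called. The test fits the 2 courses of a gene with separate Gaussian processes and with a shared one, and calls the gene where the log-likelihood ratio of separate to shared is above 0. The ratio was 9.99 for *lamtor2*, 4.85 for *flcn*, 1.14 for *lamtor1*, 0.20 for *rraga*, -1.62 for *lamtor5*, -4.49 for *lamtor3* and -7.18 for *rragc*. The 4 of 7 called stand beside 38.9% of all tested genes called and 29.6% called higher in high K+. The mean log2 difference, high K+ minus control with 1 added to each abundance, was above 0 in 7 of 7 genes, as in 58.9% of tested genes, with a median of 0.26 over the 7 (SD over time points of the median 0.31, n = 13) and of 0.08 over all tested genes. An exact two-sided sign-flip permutation test over the 13 paired time points, Benjamini-Hochberg adjusted over all tested genes, was passed by *lamtor2*, *lamtor1* and *rraga*, all higher, beside 25.3% of tested genes that passed it higher. The scaling between samples decided most of these calls. With each pair of samples scaled to a median ratio of 1, with samples scaled to the spike-in level, or with samples scaled to the total over genes that stay under 10000, *lamtor2* was called, with ratios of 6.84, 3.02 and 3.48, and *lamtor1*, *rraga* and *flcn* were not. This 1 of 7 stands beside 18.7%, 12.4% and 13% of all tested genes called higher, and 17.1%, 16.5% and 25.9% called lower. Those scalings left the median of the 7 genes at 0.14, 0.12 and 0.03, and moved the median difference of all tested genes from 0.08 to -0.01, -0.03 and -0.10, with the share of called genes that were higher going from 76.2% to 52.2%, 42.9% and 33.5%.

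**Figure D2:**
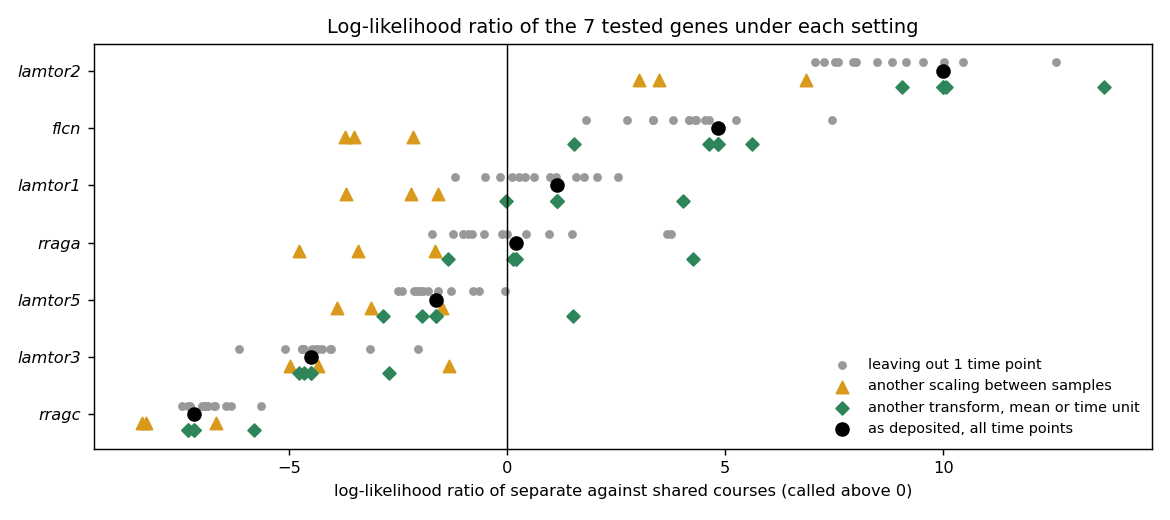
Log-likelihood ratio of separate against shared courses (horizontal axis, called above 0) for the 7 tested genes, with the deposited values in black, each left-out time point in grey, each other scaling as an orange triangle and each other transform, mean or time unit as a green diamond. All points of *lamtor2* lie above 0 (lowest 3.02), those of *lamtor1* and *rraga* lie on both sides, and the orange triangles of *flcn* lie below 0.

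*lamtor2* encodes a roadblock-fold subunit that pairs with LAMTOR3 and touches the Rags. It was the 1 gene of the 7 tested whose high K+ value was higher at every time point. Its abundance in control was 39.0 at lowest, 47.6 at the median and 74.6 at highest, and in high K+ it was 58.3, 80.1 and 96.0. All 13 high K+ samples were above the control median and 7 were above the highest control sample, so the 2 ranges overlapped in part. At 1 h it stood at 47.6 in control and 96.0 in high K+, its widest gap, with a log-likelihood ratio of 7.59 without that time point, and at 4 h at 60.2 and 62.4, its narrowest. The mean log2 difference was 0.58 ± 0.34 (SD, n = 13), higher at 13 of 13 time points, with an adjusted p of 0.00457 in the exact sign-flip test, whose raw p of 0.000244 is the smallest that 13 time points allow. The same adjusted p was reached by *sec13*, *atp6v0b*, *atp6v0a1* and *atp6v1g1*, all higher, and *gatsl2*, lower, which are described below. Of all tested genes, 13.7% were higher in high K+ at 12 or more time points, a looser rule than 13 of 13, whose share is not given here. Set against the median of all tested genes at each time point, the log2 difference of *lamtor2* was 0.50 ± 0.25 and again above it at 13 of 13. With limma the adjusted p was 0.00449 without the time point as a block and 0.000305 with it.

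*lamtor1*, the membrane anchor of the complex, was higher at 11 of 13 time points of high K+. Its abundance in control was 62.6 at lowest, 92.3 at the median and 151.6 at highest, and in high K+ it was 91.4, 127.6 and 157.7. The control values were lowest at 1 h and highest at 4.5 h, in the library that departed from its neighbours, and 12 of 13 high K+ samples were above the control median. The gap was widest at 1 h, with 62.6 in control and 152.2 in high K+, and turned at 4 h and 4.5 h, where control was higher. The mean log2 difference was 0.40 ± 0.40 (SD, n = 13), with an adjusted p of 0.0135 in the exact sign-flip test. That p was 0.0909 with spike-in scaling and 0.0637 with the total scaling. The log-likelihood ratio of *lamtor1* fell below 0 without the time point at 1 h (-1.21), 1.5 h (-0.51) or 2.5 h (-0.16).

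*lamtor3*, the partner of *lamtor2*, was set apart by its rise with time. Its abundance went from 16.2 in the first sample to 54.2 in the last in control, 3.35-fold, and from 17.0 to 40.4 in high K+, 2.38-fold. The lowest, median and highest values were 9.20, 17.6 and 54.2 in control and 10.2, 20.3 and 43.9 in high K+, so the high K+ range lay inside that of control. The log2 difference between the conditions was 0.18 ± 0.48 (SD, n = 13), higher in 9 of 13 pairs, with an adjusted sign-flip p of 0.305 (exact). Its widest gaps were 1.18 at 4.5 h, where the control sample held 14.3 between neighbours of 32.7 and 29.1, and -0.66 at 4 h. *lamtor5*, which pairs with LAMTOR4, had the closest first and last values of the tested genes, 57.7 and 52.4 in control and 77.7 and 74.8 in high K+. Its abundance was 38.9, 67.3 and 86.3 in control and 56.8, 74.8 and 95.3 in high K+ (lowest, median, highest), with the control minimum at 4.5 h. The log2 difference was 0.26 ± 0.36 (SD, n = 13), higher at 10 of 13 time points, with an adjusted sign-flip p of 0.0661 (exact). That p was 0.0479 without the time point at 1 h and 0.0258 without 2 h, the 2 settings in which it passed.

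**Figure D3:**
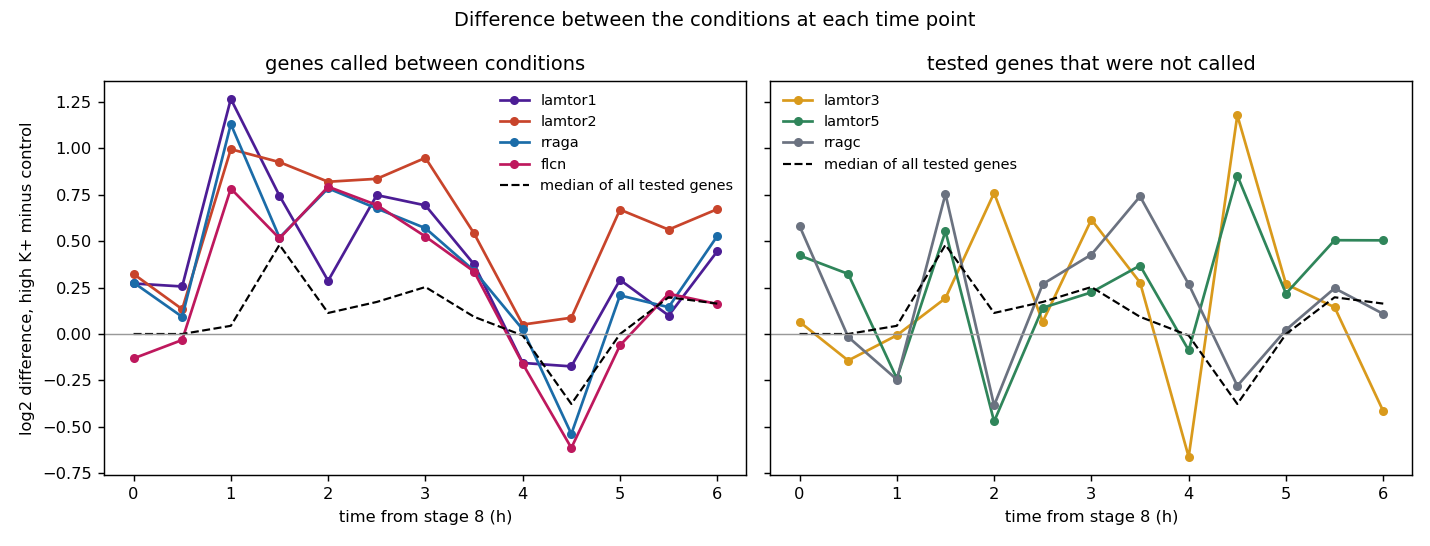
Log2 difference, high K+ minus control (vertical axis), against time from stage 8 in hours, for the 4 called genes (left) and the 3 tested genes that were not called (right), with the median of all tested genes dashed. The called genes rise together to 0.78 to 1.27 at 1 h and lie near or below 0 at 4 h to 4.5 h, where the dashed line reaches -0.38.

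Shares within Ragulator and ratios between genes do not depend on the scaling between samples. An offset of a gene from the separate correction fits of the 2 conditions can still enter them. In the summed abundance of the 4 listed subunit genes, *lamtor2* took 22.0% ± 4.1 in control and 25.4% ± 3.5 in high K+ (SD, n = 13), more in high K+ at 11 of 13 time points. *lamtor1* took 40.4% ± 5.7 and 40.9% ± 3.4, more in high K+ at 7 time points. *lamtor5* took 28.2% ± 6.3 and 25.6% ± 3.5, and *lamtor3* took 9.45% ± 5.70 and 8.12% ± 3.95, less in high K+ at 10 of 13. The mean share of *lamtor2* was thus higher and those of *lamtor3* and *lamtor5* lower in high K+, by amounts near or under 1 SD of the course, and no test was made of shares. The make-up also shifted with time, since the share of *lamtor3* went from 6.38% to 23.9% between the first and last control samples and from 5.38% to a highest value of 15.5% in high K+, while that of *lamtor2* went from 29.4% to 17.2% and from 29.6% to 21.8%. The abundance ratio of *lamtor2* to its partner *lamtor3* accordingly went from 4.605 to 0.72 in control and from 5.50 to 1.55 in high K+. High K+ had the higher ratio in 12 of 13 pairs, by 0.40 ± 0.57 on the log2 scale.

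**Figure D4:**
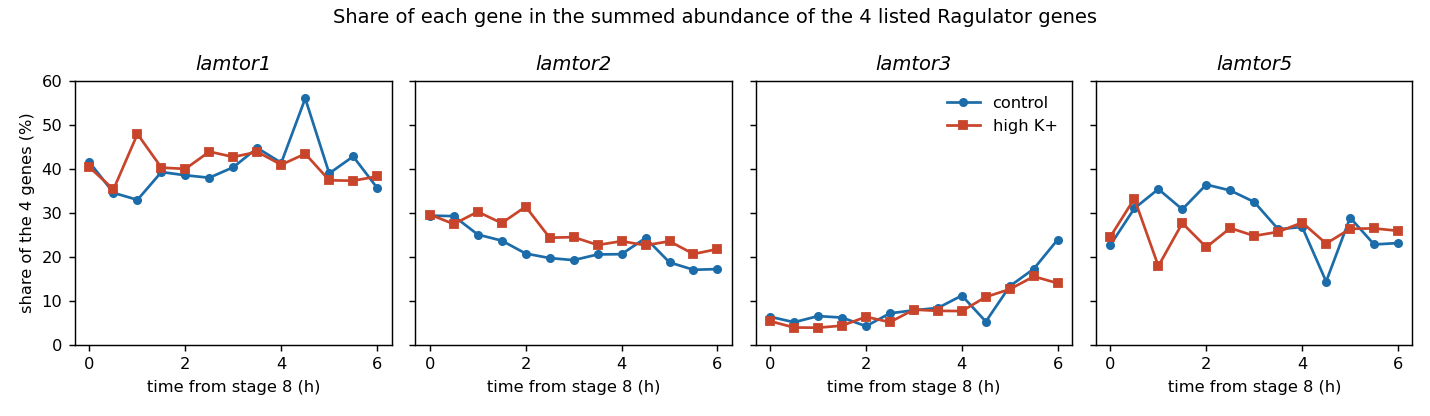
Share in percent of each gene in the summed abundance of the 4 listed Ragulator genes (vertical axis, starting at 0) against time from stage 8 in hours, control as blue circles and high K+ as red squares. The share of *lamtor2* is higher at 11 of 13 high K+ points, and that of *lamtor3* climbs late in both conditions, to 23.9% in control and 15.5% in high K+ at the highest.

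The same held against all the other genes. The log2 ratio of *lamtor2* to the geometric mean of the other 6 tested genes was 0.62 ± 0.26 in control and 0.93 ± 0.19 in high K+ (SD, n = 13), a difference of 0.31 ± 0.19 that was above 0 at 13 of 13 time points. The corresponding differences of the other genes were 0.09 for *lamtor1*, 0.06 for *rraga*, -0.08 for *lamtor5*, -0.09 for *flcn*, -0.14 for *rragc* and -0.15 for *lamtor3*, none of which kept its sign at more than 9 of 13 time points. *lamtor1* and *rraga* kept nearly the same proportion to each other in both conditions, with a log2 ratio that differed by 0.03 ± 0.21.

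Among the Rag genes, *rraga* was higher in high K+ and *rragc* was not called. *rraga* encodes RagA, whose GTP-bound form binds mTORC1. Its abundance was 49.4, 60.2 and 105.3 in control and 56.2, 80.9 and 133.3 in high K+ (lowest, median, highest), with 11 of 13 high K+ samples above the control median and 2 above the control maximum. The gap was widest at 1 h, where control held 60.3 and high K+ 133.3, and turned at 4.5 h alone, where control held 89.9 and high K+ 61.6. The log2 difference was 0.37 ± 0.41 (SD, n = 13), higher at 12 of 13 time points, with an adjusted p of 0.0289 in the exact sign-flip test. Its log-likelihood ratio of 0.20 was the smallest of the called genes and fell below 0 when any of 8 time points was left out, the widest gap at 1 h among them (1 h, 1.5 h, 2 h, 2.5 h, 3 h, 3.5 h, 4 h or 5.5 h), to -1.73 at the lowest. Its sign-flip p rose above 0.05 without 1 h (0.0530), 2 h (0.0548), 2.5 h (0.0556), 3 h (0.0526) or 6 h (0.0507), and was 0.214 with spike-in scaling and 0.220 with the total scaling.

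*rragc*, for RagC, had the largest range of the tested genes, 12.8-fold in control and 10.42-fold in high K+, where *flcn* was nearly level at 10.35-fold. Its abundance went up between the first samples, from 34.6 to 85.8 in control and from 52.3 to 84.8 in high K+, both at 0.5 h, and then declined to 8.59 and 9.34 at 6 h. The medians over the course were 23.2 and 31.6. The log2 difference was 0.19 ± 0.37 (SD, n = 13), higher in 9 of 13 pairs, with an adjusted sign-flip p of 0.163 (exact). The abundance ratio of *rraga* to *rragc*, whose products pair, was 3.04 in the first control sample, had its lowest value, 0.79, at 1 h, its highest, 7.57, at 5.5 h, and ended at 6.03. In high K+ it was 2.44 at first, 0.97 at its lowest, at 0.5 h, and 8.04 at its highest, in the last sample. *rragd*, for RagD, was listed at 0 in 4 control and 7 high K+ samples and exceeded 0.4 in 4 and 2 samples. It was highest at 6 h, at 2.00 in control and 1.81 in high K+, and was not tested.

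*flcn* declined in both conditions and was called higher in high K+, where its highest value came later. Its abundance was 2.44, 9.00 and 19.3 in control and 2.78, 13.4 and 28.7 in high K+ (lowest, median, highest). Control went down from 0.5 h to 4 h, whereas high K+ stood at 28.7 at 1 h and stayed above control up to 3.5 h. From 4 h to 5 h control was higher, with 6.70 against 4.03 at 4.5 h, and in the last 2 samples high K+ was again higher. The log2 difference was 0.23 ± 0.43 (SD, n = 13), higher at 8 of 13 time points. The log-likelihood ratio called it and the sign-flip test did not (adjusted p = 0.141, exact). Without the time point at 4.5 h that p was 0.0436, and it did not pass in any other setting.

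Along the course, *rragc* and *flcn* fell and *lamtor3* rose in both conditions. The mean of log2(abundance + 1) over the 7 late samples (3 h to 6 h) was compared with that over the 6 early ones (0 h to 2.5 h) by an exact two-sided permutation test, Benjamini-Hochberg adjusted over all tested genes. In control, late minus early was -2.01 for *rragc* (adjusted p = 0.00363), -1.49 for *flcn* (adjusted p = 0.00363) and 1.04 for *lamtor3* (adjusted p = 0.0102). In high K+ the values were -1.95, -1.87 and 1.08, each with an adjusted p of 0.00432. These calls of *rragc*, *flcn* and *lamtor3* held in all 19 settings tried, the deposited values included. In high K+ *rraga* also fell, by 0.63 on the log2 scale (adjusted p = 0.00432), as did *lamtor2*, by 0.32 (adjusted p = 0.0204). In control, late minus early was -0.24 for *rraga* (adjusted p = 0.255) and -0.16 for *lamtor2* (adjusted p = 0.411). *lamtor2* in high K+ missed the threshold with spike-in scaling (adjusted p = 0.0744) and with the total scaling (0.0783), and *rraga* in control passed it without 4.5 h (0.0445). *lamtor1* moved by 0.34 in control (adjusted p = 0.0820) and passed without 0 h (0.0461) or 6 h (0.0494). *lamtor5* moved by -0.21 in control and 0.04 in high K+ and passed in no setting. The 2 of 7 genes lower late in control stand beside 50.9% of all tested genes, and the 1 higher late beside 18.5%. In high K+ these were 4 of 7 beside 54.5%, and 1 beside 15.5%.

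The gap between the conditions was wider early than late in the 4 called genes. The mean log2 difference over early and late samples was 0.60 and 0.23 in *lamtor1*, 0.67 and 0.51 in *lamtor2*, 0.58 and 0.18 in *rraga* and 0.44 and 0.06 in *flcn*. In the others it was 0.16 and 0.20 in *lamtor3*, 0.12 and 0.37 in *lamtor5* and 0.16 and 0.22 in *rragc*. None of these changes passed the exact permutation test, with adjusted p from 0.458 to 0.960, and in the whole table it called 0 genes (0%), while 1793 had an unadjusted p under 0.05. At 1.5 h, 2.5 h, 3 h, 3.5 h and 5.5 h all 7 genes were higher in high K+, and at 4 h and 4.5 h 3 of 7 were. The median of all tested genes was 0.48 at 1.5 h and -0.38 at 4.5 h, where that of the 7 genes was 0.55 and -0.17. At 1 h and 2 h it was 0.04 and 0.11, where that of the 7 genes was 0.78 and 0.76. At 4 h the values were -0.01 and -0.09. The part of the whole table in the values of these genes was not tested beyond the scalings above.

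Over the 13 time points, Pearson's r between log2 differences was 0.92 for *rraga* and *flcn*, 0.87 for *lamtor2* and *flcn*, 0.86 for *lamtor1* and *rraga*, 0.84 for *lamtor2* and *rraga*, 0.83 for *lamtor1* and *lamtor2* and 0.78 for *lamtor1* and *flcn*. Of all tested genes, between 89.3% and 98.0% had an r with the first gene of each of these 6 pairs no higher than its partner had. *lamtor5* ran the other way, with r of -0.65 against *rraga* and -0.61 against *flcn*. For *lamtor5* 6.26% and 9.30% of tested genes had values as low or lower. These points share their libraries, so anything that shifts a whole library enters every pair, and the values are descriptions. In abundance over the 26 samples, *rragc* and *flcn* had r of 0.94, and *lamtor3* had r of -0.86 with *rragc* and -0.83 with *flcn*. For comparison, 89.0% of tested genes had an r with *rragc* no higher than that of *flcn*, and 16.1% had an r with *lamtor3* as low as that of *flcn* or lower. The tested genes outside the group whose log2 abundance over the 26 samples was most like that of *lamtor1* were *deptor* (r = 0.961), *yipf2* (0.954) and *golt1b* (0.952). For *rraga* they were LOC100493522 (0.955), *ccm2* (0.949) and *mat2a* (0.943). For *flcn* they were *hpcal1* (0.992), *pnpla3* (0.991) and *asap1* (0.991).

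Of 58 tested genes of the machinery around Ragulator, 22 were called higher in high K+ and 4 lower, with a median log2 difference of 0.18, beside 29.6% of all tested genes called higher and 9.27% lower. With the 3 other scalings, in the order above, 14, 11 and 12 were called higher and 8, 6 and 10 lower, and the median was 0.09, 0.06 and -0.01. The shares of all tested genes called higher were then 18.7%, 12.4% and 13%, and those called lower 17.1%, 16.5% and 25.9%. Among the 4 tested partners and targets of folliculin, *tfe3*, a lysosomal transcription factor, was called higher (log-likelihood ratio 1.23) with the deposited values and not with any other scaling. The partner *fnip2* had a log2 difference of 0.41 ± 0.43 and a ratio of -0.30. Of the 3 genes of GATOR1, which stimulates GTP hydrolysis by RagA, *depdc5* was higher (0.35 ± 0.44, ratio 10.2), and it was not called with spike-in scaling (-2.38). Its partner *nprl3* had the opposite sign, lower at 11 of 13 time points (-0.32 ± 0.29, adjusted sign-flip p = 0.0150, exact), with a ratio of -1.30, and it was called lower under each of the other scalings (ratios 3.44, 0.02 and 7.56).

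GATOR2, which opposes GATOR1, had 2 of 5 genes called higher under the deposited values and under each scaling. These were *sec13*, also a coat and nuclear pore protein, at 192.4 in control and 325.1 in high K+ on average (log2 difference 0.76 ± 0.34, higher at 13 of 13), and *wdr24* (0.64 ± 0.69, higher at 12 of 13). KICSTOR, which holds GATOR1 at the lysosome, had 1 of 4 called, *itfg2* (ratio 1.32), which no other scaling kept. The 6 tested amino acid sensors and transporters were divided. The leucine sensor *sesn2* was higher (0.68 ± 0.39, 12 of 13), *gatsl2*, of the CASTOR family of arginine sensors, was lower (-0.76 ± 0.33, lower at 13 of 13), and the lysosomal transporter *slc38a9* was lower on average (-0.57 ± 0.64). All of these kept their call under each scaling, whereas *sesn3* (ratio 0.89) did not. Beside the counts of these lists stand 29.6% of all tested genes called higher and 9.27% called lower with the deposited values. With the other scalings the shares were 18.7%, 12.4% and 13% higher and 17.1%, 16.5% and 25.9% lower.

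In mTORC1 with Rheb and TSC, 5 of 10 genes were called higher and none lower, beside 29.6% of all tested genes called higher, with a median log2 difference of 0.28. With the other scalings 2, 1 and 1 of the 10 were called higher, beside 18.7%, 12.4% and 13% of all tested genes. The median of the list was then 0.17, 0.14 and 0.06. The leading genes were *rhebl1*, a relative of Rheb (0.52 ± 0.40, ratio 9.81), *akt1s1*, the mTORC1 inhibitor PRAS40 (0.32 ± 0.41, ratio 6.16), and *rptor*, the subunit Raptor that binds the Rags (0.31 ± 0.42, ratio 3.78). Only *rhebl1* kept its call under all 3 other scalings. BORC, a lysosome-positioning complex that binds Ragulator, had 2 of 7 genes called higher and 1 lower, beside 29.6% and 9.27% of all tested genes. Of the former, *borcs5* was called by its fitted courses but had a mean log2 difference of -0.04 ± 0.47 and was higher at 7 of 13 time points. The lower one, *bloc1s2*, went from a mean of 93.2 in control to 60.2 in high K+ (-0.56 ± 0.50) and kept its call under each scaling, and *bloc1s1* and *borcs5* did not. The vacuolar ATPase is the proton pump of the lysosome and binds Ragulator. It had 8 of 19 tested genes called higher and 1 lower, beside 29.6% and 9.27% of all tested genes, with a median of 0.27. The symbol *atp6v1a* is listed for more than 1 of the 19 and for more than 1 of the 8. The leading genes of the vacuolar ATPase were *atp6v0b* (0.75 ± 0.31), *atp6v0a1* (0.78 ± 0.42) and *atp6v1g1* (0.50 ± 0.18), each higher at 13 of 13 time points. With the other scalings 8, 7 and 7 of its genes were called higher and 3, 1 and 4 lower, to be read against the shares of all tested genes given above for each scaling.

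**Figure D5:**
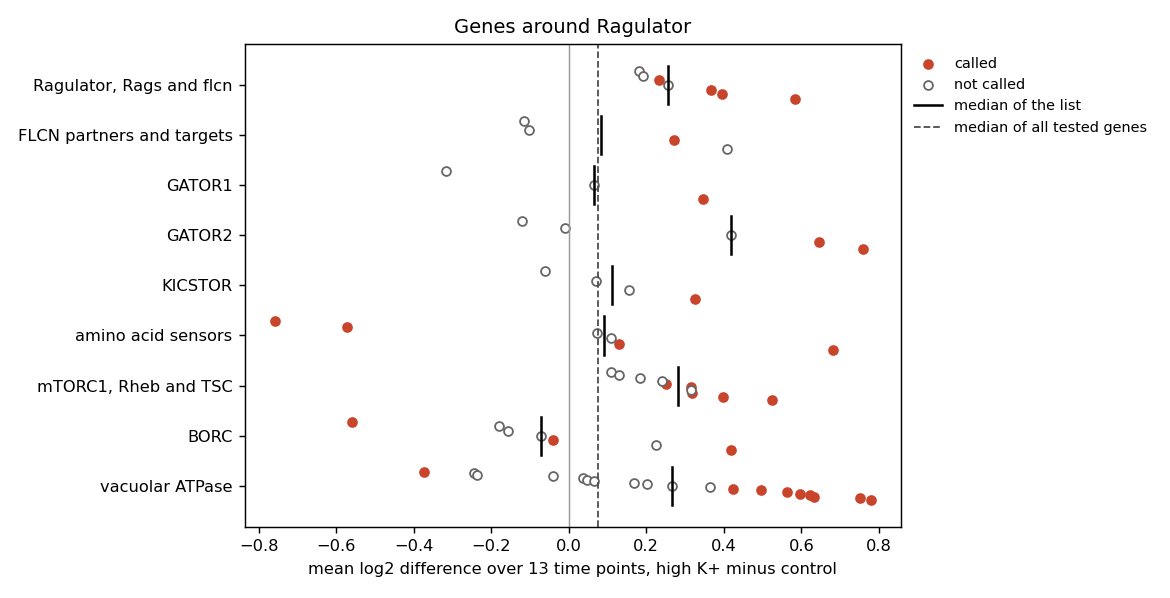
Mean log2 difference over 13 time points, high K+ minus control (horizontal axis), for the tested genes of each list (rows), filled where called, with a bar at the median of each list and a dashed line at the median of all tested genes, 0.08. The 7 genes of Ragulator, the Rags and *flcn* lie between 0.18 and 0.58, and the vacuolar ATPase, BORC and the amino acid sensors hold called genes on both sides of 0.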

How the data were processed

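Polyadenylated RNA of 26 pools of 10 embryos was sequenced with ERCC spike-in RNAs. The deposited signal values are abundances made by the authors, who used STAR for alignment and RSEM for TPM per isoform (versions not given in the sources used here), corrected the TPM by a model on dinucleotide content fitted to the spike-ins, with 1 fit per condition, and added up the isoforms of a gene. They are not counts and are not scaled to a common total. Uncorrected values were not used here, and no promoter or protein sequences were used here.

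Every test of the deposited values, and the log-likelihood ratio under the 3 other scalings, was fitted on all 15019 genes above the filter. The permutation tests used all of these genes in every other setting too. Log-likelihood ratios with the other filters, transform, mean and time unit and with left-out time points were fitted for the members alone. Gaussian processes used the kernel, priors and transform of the study's methods (alpha 1, beta 1000), with time in hours and mean 0, run in Python 3.11.15 (numba 0.67.0, pandas 2.3.3, scipy 1.17.1, numpy 2.4.6). A called gene was higher or lower by the sign of the averaged gap between its fitted medians. Differences used a pseudocount of 1, and called tests an adjusted p under 0.05. Linear models used limma 3.58.1 in R 4.3.3, and figures matplotlib 3.10.9. The Gaussian process call with the transform of the study, the sign-flip test, the test of late against early samples and limma were tried on simulated data. The scalings, the other transform, mean and criterion and the left-out time points were not. The rates of calls on simulated data are not given here. The simulated noise was independent between genes and time points, so those runs do not cover shifts of a whole library or dependence between neighbouring points. The named genes are all members and, for each pathway list, at most 3 genes with the largest log-likelihood ratios, with *slc38a9* named besides after its value was seen, as 1 of the few genes called lower, and the 3 genes most correlated with *lamtor1*, *rraga* and *flcn*. The members and the lists were chosen with earlier results of these data known. Samples of a time point share a time number in the labels, which says nothing of a shared batch. The paper names a batch-dependent bias without listing which samples made up a batch. The deviations of same-time samples correlated at 0.57 or more (median 0.81, all 13 pairs), and the time point was treated as a pair. At 10 of the 13 time points the control sample correlated best with its own high K+ sample, and at the others with another one.

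The alternatives were 3 scalings between samples, 2 other filters, another transform, mean, time unit and criterion, limma with and without the block, pseudocounts of 0.1 and 10, early samples up to 3 h, and leaving out each time point.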

Additional observations from a re-analysis of the deposited data

How the results depend on the processing

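The count of 4 genes called fell to 1, *lamtor2*, with a median ratio of 1, with the spike-in level, with the total over genes under 10000, with the Bayesian information criterion and with limma without a block, and to 2 with a log2 transform. With the 3 scalings among these, 18.7%, 12.4% and 13% of all tested genes were called higher. No such share is given for any other alternative, or for the sign-flip test beyond the deposited values. A change in these genes and a change in the whole table cannot be told apart there. In the limma fit with a replicate block on the time point, the count was 3 (*lamtor1*, *lamtor2* and *rraga*). Leaving out each time point gave 2 to 4 called genes, 2 without 1 h, 1.5 h or 2.5 h, where *lamtor2* and *flcn* were the called ones. The 3 genes past the sign-flip test became 1 with the spike-in level and 1 with the total over genes under 10000, and 2 to 4 when a time point was left out. With that total the mean log2 difference turned to -0.0344 in *lamtor3* and -0.0248 in *rragc*. The 2 other filters and the Bayesian information criterion cannot change a log-likelihood ratio. Over the 19 alternatives that can, it stayed above 0 in 19 for *lamtor2* (3.02 to 13.7), 16 for *flcn* (-3.72 to 7.45), 12 for *lamtor1* (-3.69 to 4.04), 7 for *rraga* (-4.76 to 4.27) and 1 for *lamtor5* (1.52 with the mean of each gene subtracted), and in 0 for *lamtor3* and *rragc*. The cause of these changes was not tested. The median difference of the 7 genes stayed above 0 in all alternatives (0.03 with that total to 0.32 without 2 h), and the genes that changed along the course numbered 3 or 4 in control and 4 or 5 in high K+. The depth is unknown, so what it limits could not be given.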
